A study of Mus musculus with 12 samples.

Results

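The autophagy machinery and the mitophagy receptors were read as a set of 41 genes in mouse liver RNA-seq. The members were taken by gene symbol from a fixed list, which was chosen with earlier results of these data known. All 41 were found among the 24532 genes of the table. Measurements came from 12 livers in 4 groups of 3, named WT+con, WT+EtOH, Ahr HKO+con and Ahr HKO+EtOH. All mice were male, on the C57BL/6 background, and aged 10 to 12 weeks when feeding began. Every mouse, controls included, carried Ahr alleles with loxP sites around exon 2 (Ahr fl/fl). The Ahr HKO mice also carried the Alb-Cre transgene, in which the albumin promoter drives Cre and so directs the deletion to hepatocytes. The study describes the deletion as specific to hepatocytes, and Ahr in the other cells of the liver was not checked here. The WT mice were littermates without Cre, and no group carried Cre without loxP sites. Mice received the Lieber-DeCarli liquid diet with ethanol, at 5% of the volume and 36% of the calories, or the isocaloric liquid diet without ethanol for 5 weeks. The study asked whether alcohol alters hepatic autophagy through AhR, a transcription factor that is activated by ligands.

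Autophagy encloses cytoplasm in a new membrane vesicle and delivers it to the lysosome. The ULK kinase complex starts the process, and a lipid kinase complex built around Beclin 1 marks the site with the lipid PI3P. ATG9A vesicles and the lipid transfer proteins ATG2A and ATG2B supply membrane, and WIPI proteins read the lipid mark. A ubiquitin-like conjugation system then attaches proteins of the ATG8 family, LC3 and GABARAP among them, to the growing membrane. Receptors such as p62 tie ubiquitinated cargo to ATG8 proteins, and BNIP3, BNIP3L, FUNDC1 and PINK1 act in the removal of mitochondria. TFEB and TFE3 switch on many of these genes when they enter the nucleus. In the liver, autophagy turns over lipid droplets, mitochondria and protein. The transcript levels measured here do not give the flux through the pathway.

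Gene counts summed to between 46306518 and 74336255 in a library, and the lowest count of any member in any library was 98. Levels in single livers are given as CPM, the count of a gene scaled to a common library size with TMM factors, and 3 counts corresponded to 0.0425 to 0.0676 CPM. Ahr itself was at 16.6 to 20.1 CPM in WT+con, 20.8 to 30.5 CPM in WT+EtOH, 41.3 to 65.5 CPM in Ahr HKO+con and 24.7 to 41.8 CPM in Ahr HKO+EtOH, and was thus higher in the livers labelled Ahr HKO than in WT on the control diet (log2 fold change 1.63, adjusted p 0.00164). A count over the whole gene does not separate exon 2 from the exons that remain, so it checks nothing about the deletion. Cyp1a2, a textbook AhR target in hepatocytes, was lower in the livers labelled Ahr HKO on both diets (log2 fold change -1.67, adjusted p 0.0197, and -0.73, adjusted p 0.0433). Ethanol went with higher Cyp1a2 in WT (1.16, adjusted p 0.0137) and in the livers labelled Ahr HKO (2.09, adjusted p 0.00884). The difference between these ethanol effects was 0.95 (adjusted p 0.154). Cyp1a2 was at 398 to 617 CPM in WT+con, 992 to 1212 in WT+EtOH, 90.7 to 258 in Ahr HKO+con and 629 to 684 in Ahr HKO+EtOH. The 5 hepatocyte markers summed to 68808 to 110415 CPM over the 12 livers, and no marker of any liver cell type was at 0 in every library. In whole liver, fewer cells of a type and less RNA per cell cannot be told apart.

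Per transcript length, the 4 most abundant members were a cargo receptor and 3 ATG8 genes. Sqstm1, which encodes p62, had the highest mean level over the 12 livers (251 FPKM), followed by Gabarapl1 (214 FPKM), Gabarap (161 FPKM) and Map1lc3b, the LC3B gene (91.0 FPKM). The mitophagy genes Pink1 (79.2 FPKM) and Bnip3 (75.5 FPKM) came next. Median levels by role were 91.0 FPKM for the 5 ATG8 genes, 46.7 FPKM for the 4 mitophagy genes and 33.6 FPKM for the 5 cargo receptors, against 14.8 FPKM for the 5 genes of the ULK complex, 14.8 FPKM for the 6 genes of membrane supply and lipid transfer, 9.62 FPKM for the 8 conjugation genes and 6.47 FPKM for both the 6 genes of the PI3K complex and the 2 transcription factors. The lowest members were Fundc1, a mitophagy receptor of the outer mitochondrial membrane (2.08 FPKM), and Atg10, the E2-like enzyme that joins ATG12 to ATG5 (2.07 FPKM). These levels set genes of different length on a common scale, while the tests below compare the same gene between groups and rest on counts.

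**Figure D1:**
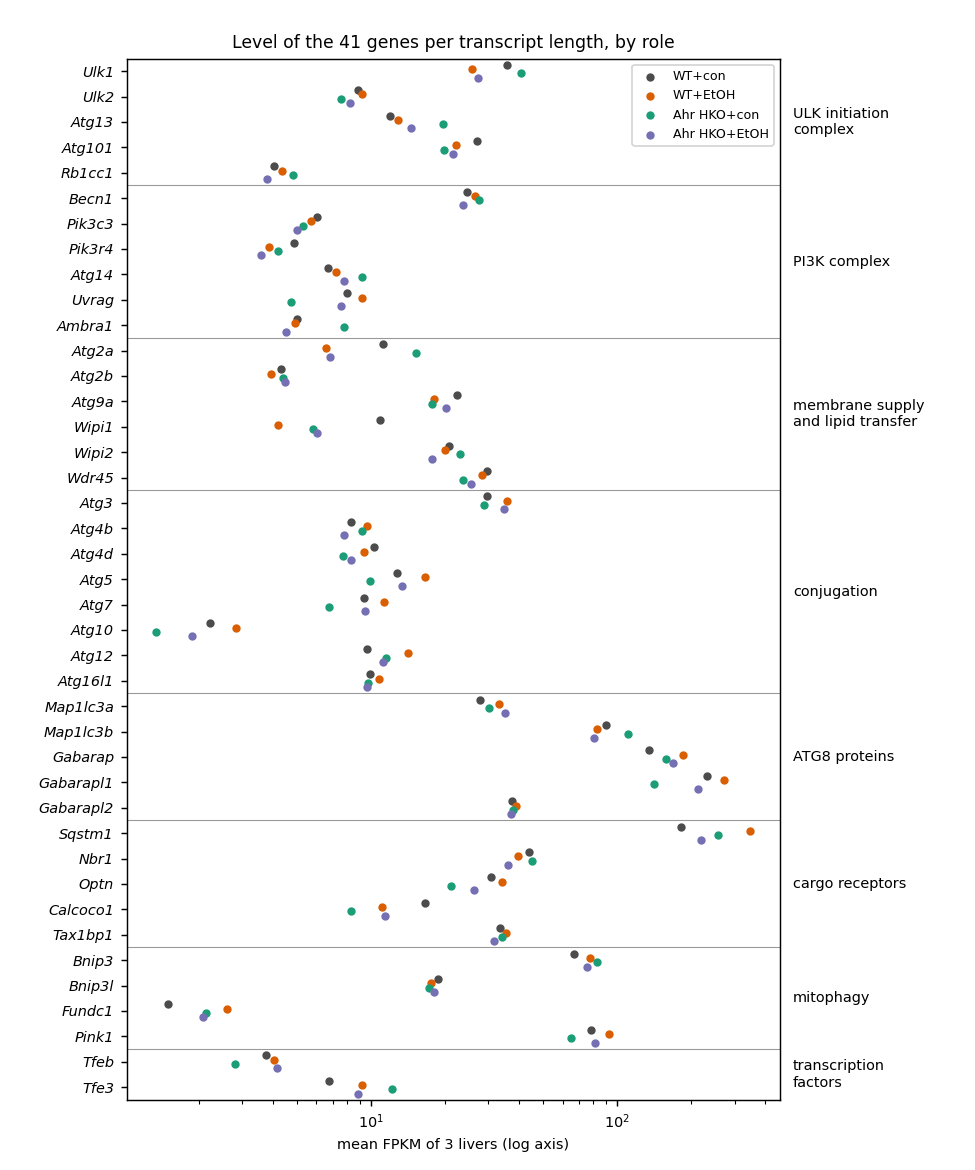
Mean FPKM of each of the 41 genes in each group of 3 livers, on a log axis, with genes grouped by role. Sqstm1 and Gabarapl1 lie highest, and Fundc1 and Atg10 lie lowest, and the means over the 12 livers run from 2.07 to 251 FPKM.

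Between the genotypes on the control diet, 18 of 41 members were called, and 10 on ethanol in the livers labelled Ahr HKO, an order that turned to 16 and 17 when all 12 libraries shared a single fit. A member is called here when its edgeR adjusted p was under 0.05, with no minimum fold change. When the diets were compared in WT, 2 of 41 members were higher and 6 were lower, against 4.84% and 4.63% of all 14038 tested genes. In the livers labelled Ahr HKO, ethanol went with 7 higher and 3 lower members, against 14.9% and 15.9% of tested genes. For livers labelled Ahr HKO against WT on the control diet, 5 members were higher and 13 were lower, against 15.4% and 14.2% of tested genes. The 13 lower members made up 31.7% of the 41. On the ethanol diet, the genotypes differed at no member, against 0.712% of tested genes higher and 0.392% lower. There, 5 of 41 members had an unadjusted p under 0.05, against 2952 of the 14038 tested genes. DESeq2 called 3 members (Wipi1, Atg9a and Atg2b). With a fold change above 1.5 required as well, the called members numbered 4, 5, 8 and 0 in these 4 comparisons, against 6.76%, 22.0%, 19.9% and 1.06% of tested genes. The number of called members on ethanol in WT, 8 in all, fell to 1 without WT+con liver 1, to 2 without WT+con liver 2, to 2 without WT+con liver 3 and to 4 without WT+EtOH liver 2, and the 10 in the livers labelled Ahr HKO came to 6 without Ahr HKO+EtOH liver 3. The share of all tested genes called by DESeq2, in the single fit and in these refits is not given here. A change in calls over the whole table can therefore not be told apart from one particular to the members. The 4 comparisons share their groups in pairs and are not independent of each other.

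The ethanol effect differed between genotypes at 12 members. In the test of the interaction of genotype and diet over all 12 livers, the effect was more positive in the livers labelled Ahr HKO for Calcoco1, Wipi1, Uvrag, Atg9a, Atg101, Tfeb, Optn and Bnip3l, and more negative for Tfe3, Ambra1, Sqstm1 and Fundc1. These 8 and 4 of 41 members stood against 11.2% and 11.1% of tested genes. Over the 41 members the median interaction was 0.20 (log2), against -0.03 over all tested genes. Altogether 23 members were called in at least 1 of the 5 comparisons, and 18 were called in none. The 23 made up 56.1% of the 41, and 47.9% of all tested genes were called in at least 1 comparison.

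**Figure D2:**
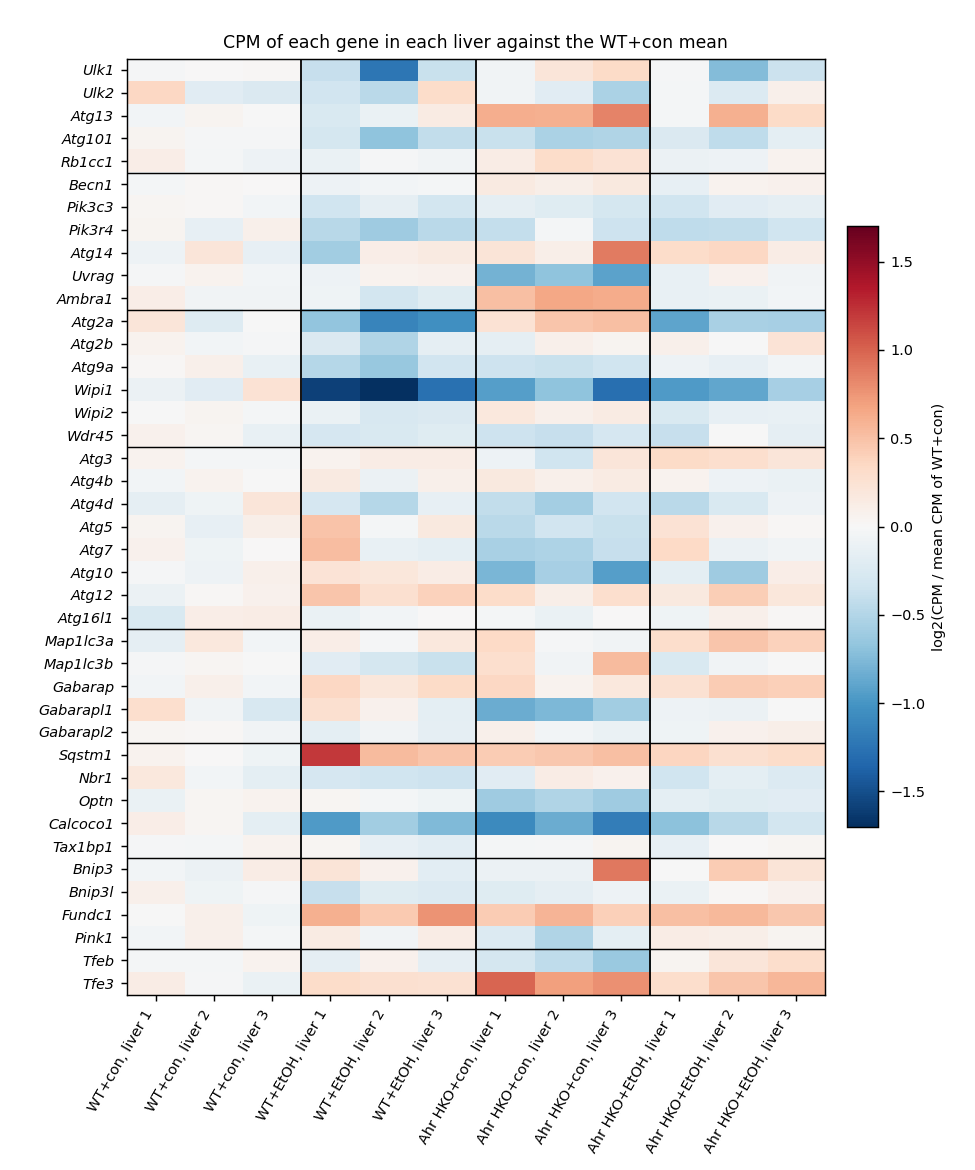
Log2 ratio of the CPM in each of the 12 livers to the mean of WT+con, for the 41 genes in the order of their roles, with red above and blue below the WT+con mean. Uvrag, Calcoco1, Gabarapl1, Optn, Atg7 and Atg10 are blue across the 3 Ahr HKO+con livers, while Wipi1 is deepest blue in WT+EtOH.

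The promoters of the 4 members with the smallest p in the interaction test are shown because all 4 had a positive interaction and because AhR binds DNA at a known core. They are from RefSeq on GRCm38.p6 and run 5′ to 3′ on the strand of the gene, from 250 bases before the annotated start to 50 after it. Capitals mark matches on either strand to GCGTG, the core of the AhR response element, to CACGTG, the E-box core read by TFEB and TFE3, or to TGACNNNGC, a core of the antioxidant response element. Calcoco1 lies at chr15:102722129-102722428 (minus strand), Wipi1 at chr11:109611340-109611639 (minus strand), Uvrag at chr7:99141095-99141394 (minus strand) and Atg9a at chr1:75191961-75192260 (minus strand).
Calcoco1: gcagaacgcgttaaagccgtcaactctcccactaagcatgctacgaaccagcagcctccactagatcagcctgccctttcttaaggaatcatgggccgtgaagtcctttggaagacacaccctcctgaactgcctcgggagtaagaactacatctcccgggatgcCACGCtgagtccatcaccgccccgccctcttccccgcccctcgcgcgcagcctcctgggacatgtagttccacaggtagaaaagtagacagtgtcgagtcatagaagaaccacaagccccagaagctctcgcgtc
Wipi1: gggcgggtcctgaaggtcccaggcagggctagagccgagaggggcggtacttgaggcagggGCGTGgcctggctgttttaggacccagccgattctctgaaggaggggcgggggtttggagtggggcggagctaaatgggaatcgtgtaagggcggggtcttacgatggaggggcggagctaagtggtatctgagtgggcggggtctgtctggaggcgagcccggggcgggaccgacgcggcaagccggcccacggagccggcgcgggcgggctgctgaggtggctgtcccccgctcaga
Uvrag: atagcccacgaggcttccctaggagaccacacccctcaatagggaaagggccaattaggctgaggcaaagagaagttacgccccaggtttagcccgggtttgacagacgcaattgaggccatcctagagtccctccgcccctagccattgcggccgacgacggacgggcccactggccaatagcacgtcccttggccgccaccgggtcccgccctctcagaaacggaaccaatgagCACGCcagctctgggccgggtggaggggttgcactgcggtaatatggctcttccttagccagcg
Atg9a: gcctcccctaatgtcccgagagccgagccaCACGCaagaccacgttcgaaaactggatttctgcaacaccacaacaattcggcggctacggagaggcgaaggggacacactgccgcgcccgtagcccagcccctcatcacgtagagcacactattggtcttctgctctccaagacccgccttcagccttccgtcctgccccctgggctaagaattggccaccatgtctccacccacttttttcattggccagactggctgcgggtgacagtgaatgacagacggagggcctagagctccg
Each of these windows held 1 match to GCGTG, which on the opposite strand reads CACGC. Those of Uvrag and Atg9a also met the longer form TNGCGTG, which contains the core. Among other members called in the interaction, Tfe3, Tfeb, Ambra1 and Optn had at least 1 GCGTG match. Atg101, Sqstm1 and Fundc1, also called in it, had 0. Bnip3l, called in it as well, had no promoter in the table. Map1lc3b, called in no comparison, had 5. Whether matches go with a call was not tested. Of the 34 members with a promoter in the table, 24 had a GCGTG match in at least 1 of their promoters. By promoter, this was 27 of 39 (69.2%), against 32.4% of all 32851 promoters of the same length. TNGCGTG was found in 3 of 39 promoters (7.69%, against 5.07% of all), CACGTG in 5 of 39 (12.8% against 7.15%) and TGACNNNGC in 4 of 39 (10.3% against 12.4%). A match is a description of letters and not of binding, and the base composition of member and other promoters was not compared.

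Within the ULK complex, Atg13 was higher and Atg101 lower in the livers labelled Ahr HKO on the control diet. Atg101, a subunit that stabilizes ATG13, was at 36.3, 34.8 and 34.7 CPM in WT+con, 28.7, 22.0 and 26.3 CPM in WT+EtOH, 27.1, 24.3 and 24.6 CPM in Ahr HKO+con, and 29.7, 26.2 and 31.4 CPM in Ahr HKO+EtOH. All WT+con livers lay above all others. Atg101 was lower on ethanol in WT (log2 fold change -0.44, SE 0.108, adjusted p 0.0467), lower in Ahr HKO than in WT on the control diet (-0.47, SE 0.0844, adjusted p 0.00697), and its interaction was 0.65 (SE 0.153, adjusted p 0.0122). The call in WT held in 1 of the 6 fits with a liver removed, with an adjusted p of up to 0.14 without WT+con liver 1, and was lost without the filter on low counts (adjusted p 0.0567), whereas the other calls of Atg101 held in all. Atg13, the regulatory subunit, was at 43.9, 47.1 and 45.3 CPM in WT+con, 38.0, 42.1 and 49.99 CPM in WT+EtOH, 69.5, 69.3 and 81.8 CPM in Ahr HKO+con, and 44.3, 69.2 and 57.1 CPM in Ahr HKO+EtOH. Its rise in the livers labelled Ahr HKO on the control diet was 0.70 (log2, SE 0.104, adjusted p 0.00368), with no overlap between the groups.

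Ulk1, the kinase of the complex, was called in no comparison. It was at 194, 197 and 199 CPM in WT+con, 150, 83.8 and 151 CPM in WT+EtOH, 188, 228 and 246 CPM in Ahr HKO+con, and 194, 118 and 153 CPM in Ahr HKO+EtOH. The 3 WT livers on ethanol lay below the 3 on the control diet, while the livers labelled Ahr HKO overlapped between diets. The ethanol difference of Ulk1 was -0.61 in WT (log2, SE 0.209, adjusted p 0.117) and -0.51 in the livers labelled Ahr HKO (SE 0.2, adjusted p 0.0922). The first had an adjusted p of 0.0373 in DESeq2, and the second one of 0.0406 without Ahr HKO+EtOH liver 1 and of 0.0459 in limma. The remaining subunits Ulk2 and Rb1cc1 ranged from 37.6 to 69.8 CPM and from 27.9 to 37.5 CPM over the 12 livers and were called nowhere.

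Uvrag and Ambra1, partners of Beclin 1, gave the clearest contrast within the PI3K complex. Uvrag, which promotes the lipid kinase and vesicle maturation, was at 28.9, 30.5 and 28.4 CPM in WT+con, 27.7, 30.5 and 30.7 CPM in WT+EtOH, 16.8, 18.2 and 15.6 CPM in Ahr HKO+con, and 26.8, 30.8 and 28.1 CPM in Ahr HKO+EtOH. The Ahr HKO+con livers stood below all 9 others, which overlapped. Uvrag was lower in Ahr HKO than in WT on the control diet (log2 fold change -0.79, SE 0.0894, adjusted p 0.00162), higher on ethanol in the livers labelled Ahr HKO (0.76, SE 0.0987, adjusted p 0.00318) and had an interaction of 0.74 (SE 0.125, adjusted p 0.00267). Ambra1, a scaffold that ties Beclin 1 to its regulators, was at 29.1, 25.9 and 26.0 CPM in WT+con, 25.6, 21.8 and 23.5 CPM in WT+EtOH, 38.5, 42.6 and 42.0 CPM in Ahr HKO+con, and 24.8, 24.9 and 26.1 CPM in Ahr HKO+EtOH. Here the Ahr HKO+con livers stood above all 9 others. Ambra1 was higher in Ahr HKO than in WT on the control diet (0.61, SE 0.093, adjusted p 0.0041), lower on ethanol in the livers labelled Ahr HKO (-0.70, SE 0.0853, adjusted p 0.00284) and had an interaction of -0.51 (SE 0.124, adjusted p 0.0148). All 6 calls of Uvrag and Ambra1 held in every fit with a liver removed.

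The core of the complex moved less. Becn1, which encodes Beclin 1, was at 51.6, 53.3 and 53.1 CPM in WT+con, 49.8, 50.9 and 51.6 CPM in WT+EtOH, 58.5, 56.5 and 59.1 CPM in Ahr HKO+con, and 47.7, 54.8 and 55.4 CPM in Ahr HKO+EtOH. It was called nowhere, and differed by 0.14 between genotypes on the control diet (log2, SE 0.0815, adjusted p 0.224). Its locus overlaps that of Cntd1, with which reads could be shared if strand was not used in counting. Pik3r4, the regulatory kinase-like subunit, was at 26.0, 22.8 and 26.8 CPM in WT+con, 18.1, 16.6 and 18.4 CPM in WT+EtOH, 19.1, 24.7 and 19.8 CPM in Ahr HKO+con, and 18.6, 18.8 and 19.9 CPM in Ahr HKO+EtOH. On ethanol it was lower in WT without overlap (-0.50, SE 0.0976, adjusted p 0.0249), a call that held in 2 of 6 fits with a liver removed and reached an adjusted p of 0.0871 without WT+con liver 1. Pik3c3, the catalytic subunit, and Atg14, the subunit that directs the complex to autophagy, ranged from 15.7 to 20.3 CPM and from 16.2 to 45.3 CPM and were called in no comparison.

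Among the roles, membrane supply and lipid transfer had the most members called lower on ethanol in WT, at 3 of 6 against 4.63% of all tested genes. All 6 had a negative log2 fold change there, with a median of -0.37 against 0.03 over all tested genes. Wipi1, a reader of PI3P, showed the largest log2 fold change of any member in the 4 pairs of groups. It was at 19.6, 18.4 and 24.9 CPM in WT+con, 6.99, 5.99 and 8.72 CPM in WT+EtOH, 10.98, 13.1 and 8.63 CPM in Ahr HKO+con, and 10.8, 11.3 and 14.2 CPM in Ahr HKO+EtOH. The WT+con livers lay above all others, and the livers labelled Ahr HKO overlapped between diets. Wipi1 was lower on ethanol in WT (-1.52, SE 0.174, adjusted p 0.00499), lower in Ahr HKO than in WT on the control diet (-0.94, SE 0.178, adjusted p 0.00845) and differed by 0.15 between diets in the livers labelled Ahr HKO (SE 0.178, adjusted p 0.542). Its interaction of 1.68 was the largest of the 41 (SE 0.272, adjusted p 0.00226). These 3 calls held in every fit with a liver removed. On the ethanol diet the genotypes differed by 0.74 (SE 0.177, adjusted p 0.0909), which DESeq2 called (adjusted p 0.00585).

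Atg9a, the membrane protein of the vesicles that seed the autophagosome, was at 92.7, 97.3 and 83.8 CPM in WT+con, 65.3, 58.4 and 73.1 CPM in WT+EtOH, 71.4, 69.9 and 72.2 CPM in Ahr HKO+con, and 86.3, 82.7 and 88.0 CPM in Ahr HKO+EtOH. WT+con and Ahr HKO+EtOH overlapped, as did the other two groups. Atg9a was lower on ethanol in WT (log2 fold change -0.46, SE 0.109, adjusted p 0.0433) and lower in Ahr HKO than in WT on the control diet (-0.36, SE 0.0958, adjusted p 0.0289), with an interaction of 0.74 (SE 0.135, adjusted p 0.00378). The interaction held in all 12 fits with a liver removed, the call in WT in 1 of 6 (adjusted p of up to 0.142, without WT+con liver 2, and 0.0543 without the filter on low counts) and the genotype call in 2 of 6 (up to 0.0978, without the same liver). Atg2a, which moves lipid into the growing membrane, was the member lower on ethanol in both genotypes. Its levels were 86.9, 64.5 and 74.8 CPM in WT+con, 47.3, 34.6 and 36.7 CPM in WT+EtOH, 89.6, 104 and 107 CPM in Ahr HKO+con, and 40.7, 51.3 and 50.8 CPM in Ahr HKO+EtOH. Control and ethanol livers did not overlap in either genotype. Ethanol went with a change of -0.92 in WT (SE 0.153, adjusted p 0.0156) and of -1.08 in the livers labelled Ahr HKO (SE 0.134, adjusted p 0.00288), and the difference between these was -0.15 (SE 0.214, adjusted p 0.668). The WT call reached an adjusted p of 0.0522 without WT+con liver 1 and 0.0566 without WT+con liver 3. Of the remaining members of this role, chosen here after their values were seen, Wdr45 was lower in Ahr HKO than in WT on the control diet (-0.34, SE 0.0934, adjusted p 0.0313, held in 2 of 6 fits with a liver removed and up to 0.0925 without WT+con liver 2), and Wipi2 was lower on ethanol in the livers labelled Ahr HKO (-0.31, SE 0.0969, adjusted p 0.0493, held in none of 6 and up to 0.128 without Ahr HKO+EtOH liver 1, and 0.065 without the filter on low counts). Atg2b was called nowhere.

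Of the 8 conjugation genes, 4 were lower and none was higher in the livers labelled Ahr HKO on the control diet, against 14.2% and 15.4% of all tested genes, with a median of -0.21 against -0.00 over all tested genes. Atg5, the core of the E3-like complex, was at 33.0, 29.0 and 34.2 CPM in WT+con, 44.7, 31.3 and 36.04 CPM in WT+EtOH, 23.4, 25.6 and 24.7 CPM in Ahr HKO+con, and 38.2, 33.6 and 32.6 CPM in Ahr HKO+EtOH. The Ahr HKO+con livers lay below all 9 others. Atg5 was lower in Ahr HKO than in WT on the control diet (log2 fold change -0.38, SE 0.0959, adjusted p 0.0227) and higher on ethanol in the livers labelled Ahr HKO (0.50, SE 0.0959, adjusted p 0.00953), while the interaction was not called (0.28, SE 0.179, adjusted p 0.275). The genotype call held in 3 of 6 fits with a liver removed (adjusted p of up to 0.0804, without WT+con liver 3). Atg12, the ubiquitin-like partner of ATG5, was at 23.8, 26.0 and 26.9 CPM in WT+con, 35.3, 30.8 and 33.6 CPM in WT+EtOH, 31.8, 27.4 and 31.2 CPM in Ahr HKO+con, and 28.7, 34.2 and 29.1 CPM in Ahr HKO+EtOH. It was higher on ethanol in WT (0.39, SE 0.0905, adjusted p 0.0408), a call that held in none of the 6 fits with a liver removed (adjusted p of up to 0.128, without WT+con liver 1) and was lost with upper-quartile scaling (adjusted p 0.0521) and in limma (adjusted p 0.054). Its locus overlaps that of Ap3s1.

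The other called conjugation genes, chosen here after their values were seen, were Atg7, Atg10 and Atg4d. Atg7, the E1-like enzyme, was lower in Ahr HKO than in WT on the control diet (log2 fold change -0.48, SE 0.0907, adjusted p 0.00821, but 0.0579 in the single fit of all 12 libraries) and higher on ethanol in the livers labelled Ahr HKO (0.56, SE 0.139, adjusted p 0.0228, but 0.0664 without Ahr HKO+con liver 1 and 0.0659 without Ahr HKO+con liver 2). Atg10 fell by 0.74 on the log2 scale between genotypes on the control diet (SE 0.17, adjusted p 0.0165, but 0.065 without WT+con liver 3 and 0.0513 without WT+con liver 1). Atg4d, a protease that trims ATG8 proteins, was lower in the same comparison (-0.43, SE 0.124, adjusted p 0.0362, held in 2 of 6 fits with a liver removed and up to 0.0995 without WT+con liver 3), and its locus overlaps that of Kri1. Atg3, Atg4b and Atg16l1 were called nowhere. No conjugation gene was called in the interaction.

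In the ATG8 family, 4 of 5 genes were called in no comparison. Of all tested genes, 47.9% were called in at least 1 comparison. Map1lc3b was at 162, 167 and 162 CPM in WT+con, 143, 133 and 126 CPM in WT+EtOH, 198, 157 and 238 CPM in Ahr HKO+con, and 136, 156 and 162 CPM in Ahr HKO+EtOH. The WT livers did not overlap between diets, and the livers labelled Ahr HKO did. Its ethanol difference was -0.27 in WT (log2, SE 0.0873, adjusted p 0.0983) and -0.39 in the livers labelled Ahr HKO (SE 0.175, adjusted p 0.132). The first had an adjusted p of 0.0279 in DESeq2 and 0.0349 in limma. The second had an adjusted p of 0.0437 without Ahr HKO+con liver 2, of 0.0174 in limma and of 0.0466 in the single fit of all 12 libraries. The genotype difference on the control diet was 0.28 (SE 0.159, adjusted p 0.222) with that liver and 0.43 (adjusted p 0.0446) without it. Its interaction was -0.10 (SE 0.193, adjusted p 0.757), and its locus overlaps that of Zcchc14.

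Gabarapl1, the most abundant ATG8 gene, was the exception. It was at 527, 415 and 359 CPM in WT+con, 525, 456 and 385 CPM in WT+EtOH, 243, 255 and 287 CPM in Ahr HKO+con, and 407, 406 and 430 CPM in Ahr HKO+EtOH. The Ahr HKO+con livers lay below all 9 others. Gabarapl1 was lower in Ahr HKO than in WT on the control diet (log2 fold change -0.73, SE 0.163, adjusted p 0.0157, but 0.0504 without Ahr HKO+con liver 1) and higher on ethanol in the livers labelled Ahr HKO (0.66, SE 0.117, adjusted p 0.00752). Its interaction was 0.59 (SE 0.216, adjusted p 0.0703) and was not called. As a share of the summed FPKM of the 5 ATG8 genes, Gabarapl1 made up 40.3% to 49.8% in WT+con, 40.3% to 47.0% in WT+EtOH, 26.6% to 31.8% in Ahr HKO+con and 38.4% to 41.5% in Ahr HKO+EtOH. The locus overlaps that of 1700101I11Rik.

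Among cargo receptors, Calcoco1 and Optn were lower and Sqstm1 was higher in the livers labelled Ahr HKO on the control diet. Calcoco1, a receptor for selective autophagy of the endoplasmic reticulum, was at 53.8, 50.9 and 44.1 CPM in WT+con, 25.4, 32.8 and 29.5 CPM in WT+EtOH, 23.4, 27.6 and 22.0 CPM in Ahr HKO+con, and 30.7, 35.9 and 40.0 CPM in Ahr HKO+EtOH. The WT+con livers lay above all others. Calcoco1 was lower on ethanol in WT (log2 fold change -0.75, SE 0.133, adjusted p 0.0189) and higher on ethanol in the livers labelled Ahr HKO (0.55, SE 0.13, adjusted p 0.0194), the only member called in opposite directions by diet in the 2 genotypes. It was lower in Ahr HKO than in WT on the control diet (-1.02, SE 0.122, adjusted p 0.00185), and its interaction was 1.31 (SE 0.192, adjusted p 0.00141), which held in all 12 fits with a liver removed. The ethanol calls held in 4 of 6 such fits in WT (adjusted p of up to 0.0705, without WT+con liver 2) and in 2 of 6 in the livers labelled Ahr HKO (up to 0.0768, without Ahr HKO+EtOH liver 3).

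Sqstm1 was at 403, 387 and 365 CPM in WT+con, 885, 559 and 532 CPM in WT+EtOH, 522, 531 and 549 CPM in Ahr HKO+con, and 495, 465 and 480 CPM in Ahr HKO+EtOH. The WT+con livers lay below all others, and WT+EtOH liver 1 stood far above the rest. On ethanol the difference in WT was 0.78 (log2, SE 0.198, adjusted p 0.0516) and was not called. Without WT+EtOH liver 1 it was 0.49 (adjusted p 0.0449), and without WT+EtOH liver 3 it was 0.92 (adjusted p 0.0455). It was also called in DESeq2 (adjusted p 0.0023) and in the single fit of all 12 libraries (adjusted p 0.0152). Sqstm1 was higher in Ahr HKO than in WT on the control diet (0.48, SE 0.106, adjusted p 0.015, but 0.0597 without WT+con liver 2 and 0.065 without WT+con liver 3, and 0.0511 in the fit of all 12 libraries). The ethanol difference in the livers labelled Ahr HKO was -0.15 (SE 0.107, adjusted p 0.307), whereas limma on quantile-normalized FPKM gave -0.34 (adjusted p 0.0376). Its interaction was -0.93 (SE 0.236, adjusted p 0.0177) and held in all 12 fits with a liver removed, from -1.06 to -0.66.

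Optn, which encodes the ubiquitin receptor optineurin, was at 73.2, 80.9 and 82.4 CPM in WT+con, 80.4, 76.7 and 75.1 CPM in WT+EtOH, 52.1, 55.5 and 51.7 CPM in Ahr HKO+con, and 70.5, 68.2 and 69.3 CPM in Ahr HKO+EtOH. The Ahr HKO+con livers lay below all 9 others. Optn was lower in Ahr HKO than in WT on the control diet (log2 fold change -0.57, SE 0.0926, adjusted p 0.00513) and higher on ethanol in the livers labelled Ahr HKO (0.39, SE 0.087, adjusted p 0.0163, but 0.0612 without Ahr HKO+EtOH liver 3). Its interaction was 0.41 (SE 0.108, adjusted p 0.0204, but 0.0517 without WT+con liver 2 and 0.0531 without WT+con liver 3). Nbr1 and Tax1bp1, which also bind ubiquitinated cargo, ranged from 169 to 246 CPM and from 103 to 121 CPM and were called nowhere.

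Of the 4 mitophagy genes, Fundc1 was called in 3 comparisons, Bnip3l in 1, and Bnip3 and Pink1 in none. The share of all tested genes called in at least 1 comparison was 47.9%. Fundc1 was at 4.69, 4.999 and 4.48 CPM in WT+con, 7.21, 6.42 and 8.06 CPM in WT+EtOH, 6.37, 7.08 and 6.27 CPM in Ahr HKO+con, and 6.73, 6.90 and 6.47 CPM in Ahr HKO+EtOH. The WT+con livers lay below all others. Fundc1 was higher on ethanol in WT (log2 fold change 0.63, SE 0.136, adjusted p 0.0342), higher in Ahr HKO than in WT on the control diet (0.48, SE 0.128, adjusted p 0.0275) and had an interaction of -0.59 (SE 0.165, adjusted p 0.0269). In fits with a liver removed these calls held in 1 of 6, 2 of 6 and 6 of 12, with adjusted p of up to 0.118, 0.0929 and 0.0642, each without WT+con liver 3. In limma on log2(FPKM + 1), a scale that understates changes of low genes, the interaction was -0.34 (adjusted p 0.0516). Bnip3l, the receptor NIX, was at 68.3, 61.3 and 63.6 CPM in WT+con, 49.2, 55.8 and 54.8 CPM in WT+EtOH, 56.0, 58.0 and 60.5 CPM in Ahr HKO+con, and 59.6, 65.2 and 67.8 CPM in Ahr HKO+EtOH. It was called in the interaction alone (0.41, SE 0.12, adjusted p 0.0305), which held in 6 of 12 fits with a liver removed (adjusted p of up to 0.0804, without Ahr HKO+con liver 1). Bnip3, whose highest liver was Ahr HKO+con liver 3 at 232 CPM against 109 to 167 CPM in the rest, and Pink1, which ranged from 139 to 217 CPM, were called in no comparison.

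Of the transcription factors, Tfe3 was higher and Tfeb lower in the livers labelled Ahr HKO on the control diet. Tfe3 was at 25.3, 22.9 and 21.4 CPM in WT+con, 28.8, 28.0 and 27.8 CPM in WT+EtOH, 46.2, 37.5 and 39.6 CPM in Ahr HKO+con, and 28.5, 32.3 and 34.4 CPM in Ahr HKO+EtOH. The Ahr HKO+con livers lay above all 9 others. Tfe3 was higher in Ahr HKO than in WT on the control diet (log2 fold change 0.83, SE 0.113, adjusted p 0.00279), and its interaction was -0.66 (SE 0.147, adjusted p 0.0104), both held in every fit with a liver removed. Tfeb was at 9.13, 9.07 and 9.71 CPM in WT+con, 8.38, 9.78 and 8.39 CPM in WT+EtOH, 7.56, 6.89 and 6.01 CPM in Ahr HKO+con, and 9.61, 10.8 and 11.5 CPM in Ahr HKO+EtOH. The Ahr HKO+con livers lay below all 9 others. Tfeb was lower in Ahr HKO than in WT on the control diet (-0.44, SE 0.125, adjusted p 0.0344, held in 1 of 6 fits with a liver removed and up to 0.108 without WT+con liver 3), higher on ethanol in the livers labelled Ahr HKO (0.64, SE 0.135, adjusted p 0.0132, but 0.0526 without Ahr HKO+EtOH liver 3) and had an interaction of 0.71 (SE 0.168, adjusted p 0.0134). Per transcript length, the ratio of Tfe3 to Tfeb was 1.60 to 2.01 in WT+con, 2.06 to 2.45 in WT+EtOH, 3.90 to 4.77 in Ahr HKO+con and 2.12 to 2.15 in Ahr HKO+EtOH. Both genes are regulated largely by phosphorylation, which transcript levels do not show.

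**Figure D3:**
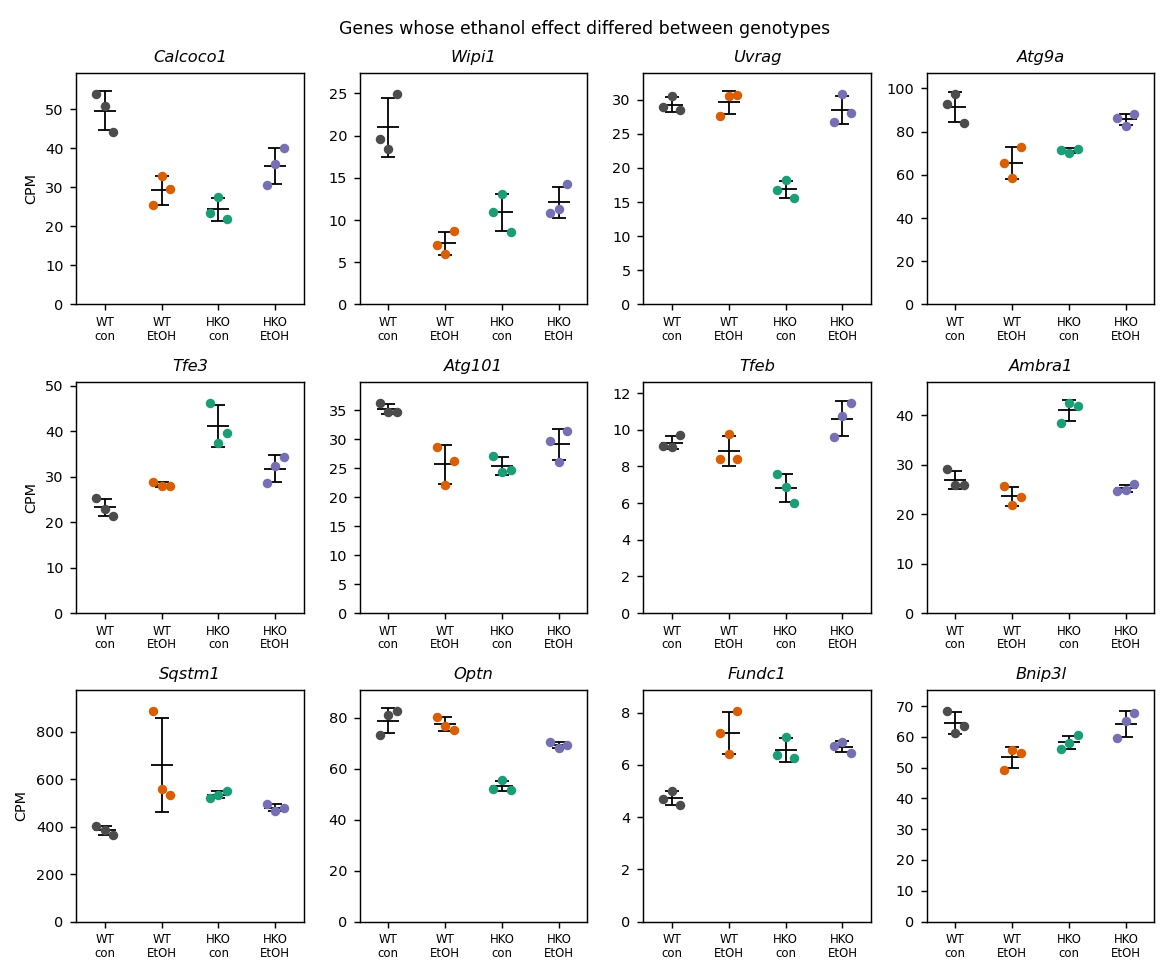
CPM in each liver (points) of the 12 genes called in the interaction of genotype and diet, with the mean (bar) and SD (whiskers) of each group of 3 livers and axes that start at 0. Ahr HKO+con lies apart from the other groups for Uvrag, Tfe3, Tfeb, Ambra1 and Optn, and WT+con lies apart for Calcoco1, Wipi1, Atg101, Sqstm1 and Fundc1.

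Initiation, conjugation and receptor genes were then set side by side. The ULK complex had no higher and 1 lower of 5 genes on ethanol in WT, no call on ethanol in the livers labelled Ahr HKO, and 1 higher and 1 lower on the control diet between genotypes. The conjugation genes had 1 higher of 8 on ethanol in WT, 2 higher in the livers labelled Ahr HKO, and 4 lower between genotypes. For the 5 cargo receptors, the counts were 1 lower, 2 higher, and 1 higher with 2 lower. Median log2 fold changes of the ULK complex, the conjugation genes and the receptors were -0.10, 0.12 and -0.08 for ethanol in WT, where the median of all tested genes was 0.03. In the livers labelled Ahr HKO they were -0.27, 0.25 and -0.03 for ethanol, with -0.02 over all tested genes. Between genotypes on the control diet they were 0.17, -0.21 and 0.00, with -0.00 over all tested genes. All tested genes were called higher and lower at 4.84% and 4.63% on ethanol in WT, at 14.9% and 15.9% on ethanol in the livers labelled Ahr HKO, and at 15.4% and 14.2% between genotypes on the control diet. No test was made between the roles.

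On the ethanol diet, no member passed the test between the livers labelled Ahr HKO and WT. Log2 fold changes of the 41 ran from -0.45 for Sqstm1 (SE 0.195, adjusted p 0.24) to 0.74 for Wipi1, with a median of 0.08 against -0.01 over all tested genes. They were positive for 31 and negative for 10, against 6861 and 7170 of the 14038 tested genes. All 6 genes of membrane supply and lipid transfer were positive, with a median of 0.33. Of these 6, 3 had an unadjusted p under 0.05, as had 2952 of the 14038 tested genes. Uvrag and Becn1 differed by -0.05 (adjusted p 0.798) and 0.05 (adjusted p 0.788).

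**Figure D4:**
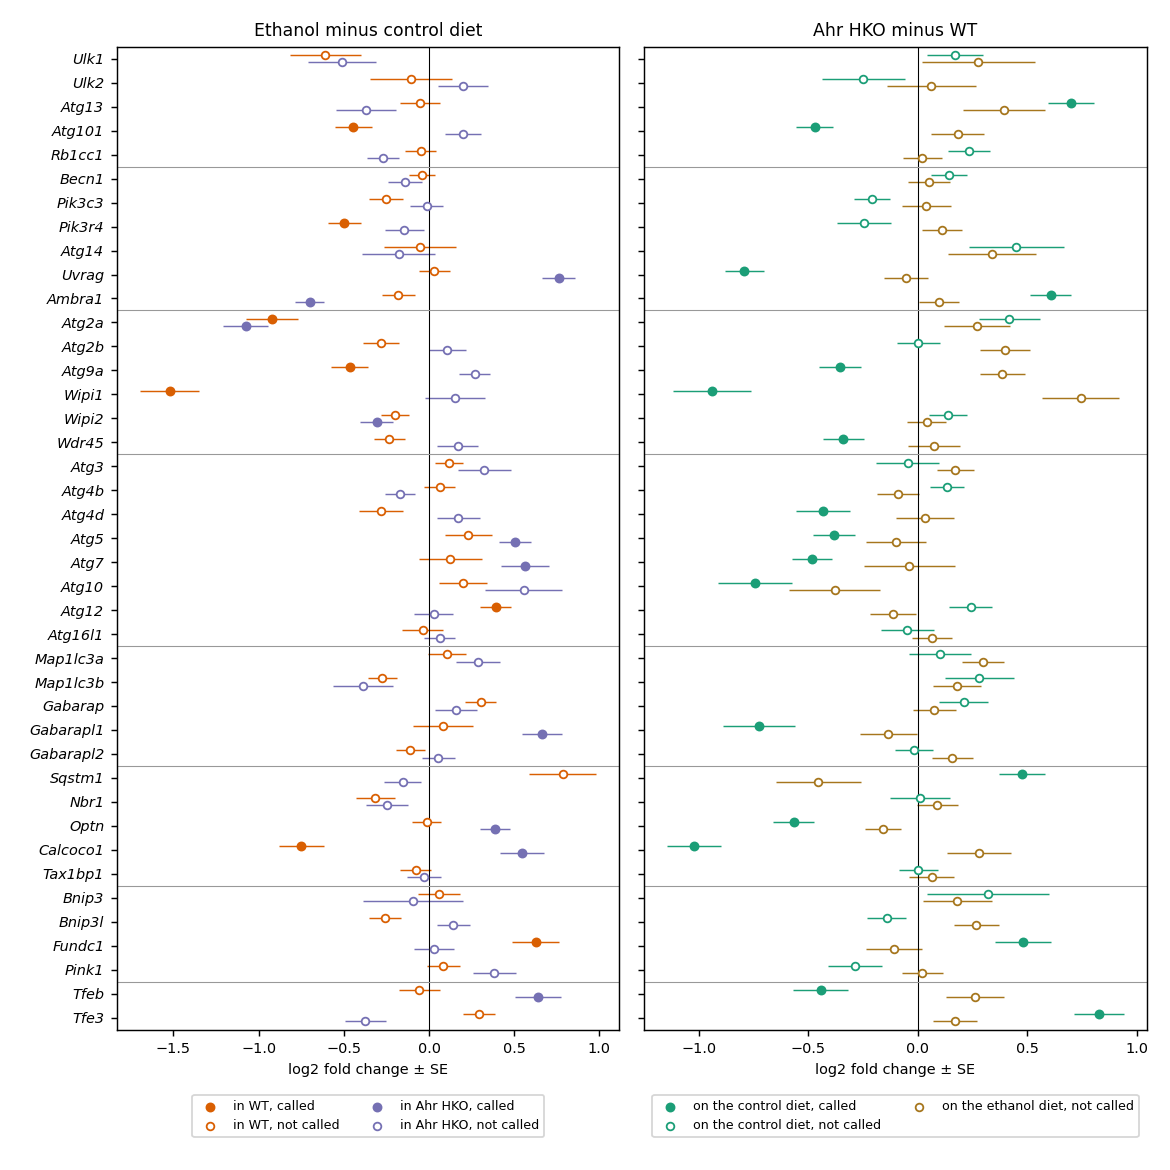
Log2 fold change of the 41 genes with its SE, for the ethanol minus the control diet in each genotype (left) and for Ahr HKO against WT on the control and the ethanol diet (right), where filled points have an edgeR adjusted p under 0.05. On the left, Wipi1 lies far to the left in WT alone and Atg2a in both genotypes, and on the right no point of the ethanol diet is filled.

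Markers of liver cell types were called in the same comparisons. Of all tested genes, 4.84% were higher and 4.63% lower on ethanol in WT. The shares were 14.9% and 15.9% on ethanol in the livers labelled Ahr HKO. Between genotypes they were 15.4% and 14.2% on the control diet, and 0.712% and 0.392% on the ethanol diet. In the interaction, 11.2% were more positive and 11.1% more negative. Whether any marker list exceeded these shares was not tested. On ethanol in the livers labelled Ahr HKO, 7 of 7 Kupffer cell and macrophage markers were lower, and their sum was 163 to 205 CPM in Ahr HKO+EtOH against 267 to 773 CPM in Ahr HKO+con, 301 to 391 CPM in WT+con and 267 to 697 CPM in WT+EtOH. In the interaction, 4 of these 7 markers were more negative in the livers labelled Ahr HKO. Of 3 tested neutrophil markers, 2 were higher on ethanol in WT, 2 were higher in Ahr HKO than in WT on the control diet, 2 were lower on ethanol in the livers labelled Ahr HKO and 3 were more negative in the interaction. The neutrophil sum was 1.29 to 2.78 CPM in WT+con, 4.43 to 7.89 CPM in WT+EtOH, 7.01 to 8.56 CPM in Ahr HKO+con and 2.41 to 3.44 CPM in Ahr HKO+EtOH. Of 6 stellate cell markers, 1 was more positive and 1 more negative in the interaction. Of the same 6, 3 were higher and 1 was lower on ethanol in the livers labelled Ahr HKO. On ethanol in WT 2 of the 6 were higher, and 2 of the 6 were lower in Ahr HKO than in WT on the control diet. Their sum was 233 to 279 CPM in WT+con, 258 to 347 CPM in WT+EtOH, 195 to 215 CPM in Ahr HKO+con and 291 to 330 CPM in Ahr HKO+EtOH. The 4 erythroid markers summed to 363 to 566 CPM in WT+con and 122 to 251 CPM in WT+EtOH. Their sum was 83.1 to 289 CPM in Ahr HKO+con and 248 to 329 CPM in Ahr HKO+EtOH. By this sum the WT+con livers lay above all others. Alas2, however, was at 105 CPM in WT+con liver 2 against 129 CPM in Ahr HKO+EtOH liver 3. Hba-a1 was at 4.43 CPM in WT+con liver 1 against 94.5 CPM in Ahr HKO+con liver 1. Taken singly, none of the 4 markers set all WT+con livers above the rest. Of these 4, 1 was lower on ethanol in WT, 1 was lower in Ahr HKO than in WT on the control diet and 1 was higher in Ahr HKO than in WT on the ethanol diet. Of 6 markers of sinusoidal endothelium, 2 were lower on ethanol in the livers labelled Ahr HKO. Among the same markers, 1 was higher in Ahr HKO than in WT on the control diet and 1 was more negative in the interaction. Of 6 lymphocyte markers, whose sum was at most 4.19 CPM, 2 were lower in Ahr HKO than in WT on the control diet. Of 4 cholangiocyte markers, 1 was lower on ethanol in the livers labelled Ahr HKO and 1 was more negative in the interaction. On the control diet, 1 cholangiocyte marker was higher in Ahr HKO than in WT. Of 5 hepatocyte markers, 1 was lower on ethanol in WT and 1 was higher on ethanol in the livers labelled Ahr HKO. In the interaction 1 hepatocyte marker was more positive. The part of these cell types in the differences of the members was not tested.

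A further 43 genes of the pathway, among them relatives and partners of the machinery, upstream regulators, factors of fusion with the lysosome and further receptors, were counted in the same fits. On ethanol in WT, 4 were higher and 4 lower (9.30% each, against 4.84% and 4.63% of all tested genes), and the smallest adjusted p were those of Atg16l2 (log2 fold change -0.85, SE 0.134, adjusted p 0.0136), Tecpr1, a tether to the lysosome (-0.67, SE 0.112, adjusted p 0.0158), Trp53inp1 (1.87, SE 0.355, adjusted p 0.023) and Trp53inp2 (-0.67, SE 0.13, adjusted p 0.0241). Trp53inp1, a stress-induced p53 target, was at 20.1 to 30.2 CPM in WT+con and 54.6 to 143 CPM in WT+EtOH. On ethanol in the livers labelled Ahr HKO, 7 were higher and 6 lower (16.3% and 14.0%, near the 14.9% and 15.9% of all tested genes), led by Fundc2, a relative of Fundc1 (-1.13, SE 0.148, adjusted p 0.00324), Tex264, an endoplasmic reticulum receptor (0.74, SE 0.12, adjusted p 0.00582), Vamp8, a SNARE protein of fusion with the lysosome (0.53, SE 0.103, adjusted p 0.0103), and Plekhm1, an adaptor of lysosomal fusion (-0.61, SE 0.134, adjusted p 0.0145). On the control diet between genotypes, 4 were higher and 6 lower (9.30% and 14.0%, against 15.4% and 14.2% of all tested genes), led by Nrbf2, a subunit of the PI3K complex (0.65, SE 0.0871, adjusted p 0.00268), Ncoa4, the ferritin receptor (0.56, SE 0.112, adjusted p 0.0102), Tbk1, the kinase of optineurin (0.60, SE 0.123, adjusted p 0.0116), and Deptor, an inhibitor of mTOR (-0.92, SE 0.195, adjusted p 0.0127). None of the 43 was called between genotypes on the ethanol diet, against 0.712% of all tested genes higher and 0.392% lower. There, 9 of the 43 had an unadjusted p under 0.05, as had 2952 of the 14038 tested genes. In the interaction, 6 were more positive and 4 more negative, against 11.2% and 11.1% of all tested genes.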

How the data were processed

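RNA-seq of 12 mouse livers was used, with groups and replicate numbers taken from the sample labels. Polyadenylated RNA was made into stranded libraries and sequenced from both ends. The submitters' processing notes name FastQC 0.11.7, Trimmomatic 0.38, HISAT2 2.1.0, Bowtie2 2.3.4.1, StringTie 1.3.4d and the mm10 build, and the strand setting of the counting is not given in the sources used here. The authors deposited whole-number read counts per gene without normalization. The deposited FPKM values are the counts scaled to gene length and library size, and were used for levels between genes. The deposited TPM values were not used. Members were matched to RefSeq on GRCm38.p6 by Entrez identifier (41 of 41).

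The counts of all genes were tested with edgeR 4.0.16 in R 4.3.3 (filterByExpr over the 4 groups, TMM factors of 0.925 to 1.16, quasi-likelihood F test). Each pair of groups was fitted on its own 6 libraries, and the interaction of genotype and diet on all 12. P values were two-sided and adjusted by the Benjamini-Hochberg method over 14038 genes, and the SE is the size of the log2 fold change divided by the root of the F statistic. All 41 members passed the filter. The study's own test ran on quantile-normalized log2 FPKM, which was kept as an alternative with limma 3.58.1 (pseudocount 1). Each liver is from a separate mouse. The limit of 3 counts covers counting error only. No batch is named in the labels, and no pair of libraries had identical counts (0 found).

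Values in every liver are given for Map1lc3b, Sqstm1, Ulk1, Becn1, the members called in the interaction and at most the 6 called members with the smallest adjusted p in each pair, and at most 4 further pathway genes are named in each pair. The members, gene lists and tests were chosen with earlier results of these data known, and a second call rule with a fold change above 1.5, a threshold of the study, was added to the planned tests. Alternatives were DESeq2 1.42.0, upper-quartile scaling, no filter, limma, the replicate number as a block, all 12 libraries in a single fit, and each liver left out in turn. The statistics were tested on simulated data, and figures were drawn with matplotlib 3.10.9.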

Additional observations from a re-analysis of the deposited data

Results flagged for a closer look

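The difference between the ethanol effect in the livers labelled Ahr HKO and that in WT had an edgeR adjusted p under 0.05, in a fit across all tested genes, at 12 of the 41 genes. On the log2 scale it was 1.68 for Wipi1, 1.31 for Calcoco1, 0.74 for Uvrag, 0.74 for Atg9a, 0.71 for Tfeb, 0.65 for Atg101, 0.41 for Optn and 0.41 for Bnip3l, and it was -0.93 for Sqstm1, -0.66 for Tfe3, -0.59 for Fundc1 and -0.51 for Ambra1. For Calcoco1, all 3 WT livers on ethanol lay below the 3 on the control diet, and all 3 livers labelled Ahr HKO on ethanol lay above theirs. With 3 livers per group, no test for a single outlying liver was applied.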

How the results depend on the processing

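No called member changed direction under any alternative. The 48 calls of a member in a comparison numbered 24 that held in every fit with a liver left out and 29 that held under every other alternative. Fits with a liver left out have fewer samples, and the share of all tested genes called under each alternative is not given here. Called members on ethanol in WT were 8, with 1 to 6 when a liver was left out, 2 with the replicate block, and 1 higher and 6 lower with upper-quartile scaling or 1 higher and 7 lower with limma. They were 12 with DESeq2, 9 with all 12 libraries in a single fit and 6 without the filter. On ethanol in the livers labelled Ahr HKO they were 10, with 6 to 10 when a liver was left out, 17 with all 12 libraries in a single fit, and 7 higher and 7 lower with limma against 7 and 3. With DESeq2 they were 13, with upper-quartile scaling 12 and with the replicate block 7. Between genotypes on the control diet they were 18, with 12 to 17 when a liver was left out, 10 with the replicate block and 16 with all 12 libraries in a single fit. With DESeq2 or limma they were 19, and with upper-quartile scaling they were 20. Between genotypes on the ethanol diet they were 0, with 3 in DESeq2 and 1, Atg9a, with all 12 libraries in a single fit. The interaction had 10 to 13 called members when a liver was left out and 11 to 14 otherwise. Where a count moved without a change in samples or genes tested, the cause was not tested.

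Same-numbered livers of different groups had deviations correlated at -0.14 to 0.31 (median -0.04). For livers of unlike number the range was -0.31 to 0.19 (median 0.03). Of the 12 livers, 4 correlated best with a liver of their own number. The labels state no pairing, and with overlapping ranges these values cannot decide whether same-numbered livers share a batch. The replicate block ended 18 of the single calls. Every member had at least 98 counts in every library, and the effect of depth or of more livers was not tested.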
